A study of Mus musculus with 6 samples.

Results

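The G2/M and mitosis genes are a set of 34 genes whose transcripts accumulate as a dividing cell approaches and passes through mitosis. They were taken from a named list, matched by symbol to array rows that carry exactly 1 gene symbol, and 33 of the 34 had such a row, out of 22180 genes in all. The expression of Ccnb1, which encodes cyclin B1, was not analysed here. The cells were basal cells, the outer epithelial layer of the mouse mammary gland, sorted by flow cytometry from freshly digested glands of virgin females aged 8 to 14 weeks. The knockout group (KO) carried homozygous losses of Trp53, p16ink4a and p19arf, the last pair being the products of Cdkn2a, and was compared with wild type (WT). Each genotype had 3 biological replicates with 1 whole-transcript array each. The labels give no strain, no statement on pooled animals and no account of how the alleles were made, and they do not say whether the loss was confined to the mammary gland.

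Mitosis begins when cyclin A and cyclin B activate the kinase Cdk1, and it ends when the anaphase-promoting complex marks the cyclins for destruction. In between, spindle microtubules driven by kinesin motors attach to kinetochores, a checkpoint holds anaphase until every chromosome is attached, and the central spindle and a contractile ring then divide the cell. Many such genes are switched on late in the cycle through a promoter sequence called the cell cycle genes homology region (CHR) and through CCAAT boxes. In resting cells the DREAM complex is known to hold such promoters silent, and p53 can promote its formation by inducing the kinase inhibitor p21. In the adult virgin gland, basal cells divide rarely and unevenly, with the phase of the estrous cycle among the known influences.

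All values below are log2 expression values per gene as deposited, and a difference of 1 is a doubling. The array medians lay between 5.22 and 5.39 over all rows, and the 6 arrays correlated with r between 0.961 and 0.978 across rows. The basal keratin Krt14 stood at 13.3 ± 0.0391 in KO cells and 13.4 ± 0.122 in WT cells (SD, n = 3 each), which bears out the basal label. The luminal keratin Krt8 was also present, at 11.2 ± 0.148 in KO cells and 11.5 ± 0.466 in WT cells. Cdkn2a read 6.32 ± 0.0703 in KO cells and 6.25 ± 0.356 in WT cells, while Trp53 was not analysed here. The sources used here do not say where the Cdkn2a probes lie relative to the deleted part, so neither deleted gene could check the labels. Arrays carry no read depth, and the low number of arrays limits precision.

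The mitosis genes were lower on average in KO cells, by less than the WT arrays differed among themselves. Of the 33 measured genes, 30 had a negative and 3 a positive log2 fold change (KO minus WT), with a median of -0.26, where the median of all 22180 genes was -0.01 and 51.7% of them were negative. The mean over the 33 genes was 5.12, 5.31 and 5.52 on the KO arrays, against 5.57, 5.07 and 6.23 on the WT arrays. WT replicate 3 was the highest array and WT replicate 2 the lowest, and the 3 KO arrays lay between them with WT replicate 1 just above. The genotype means were 5.32 ± 0.199 in KO cells and 5.62 ± 0.578 in WT cells (SD, n = 3 each). No mitosis gene passed the test. With limma, fitted over all genes, 0 of 33 had an adjusted p under 0.05, as did 0% of all genes, and the smallest adjusted p over all genes was 0.818. At an unadjusted p under 0.05, 0 of the 33 were lower in KO cells, beside 1.71% of all genes, and 736 genes passed that threshold in either direction. In bulk RNA, fewer cycling cells and less mitotic RNA per cycling cell cannot be told apart.

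**Figure D1:**
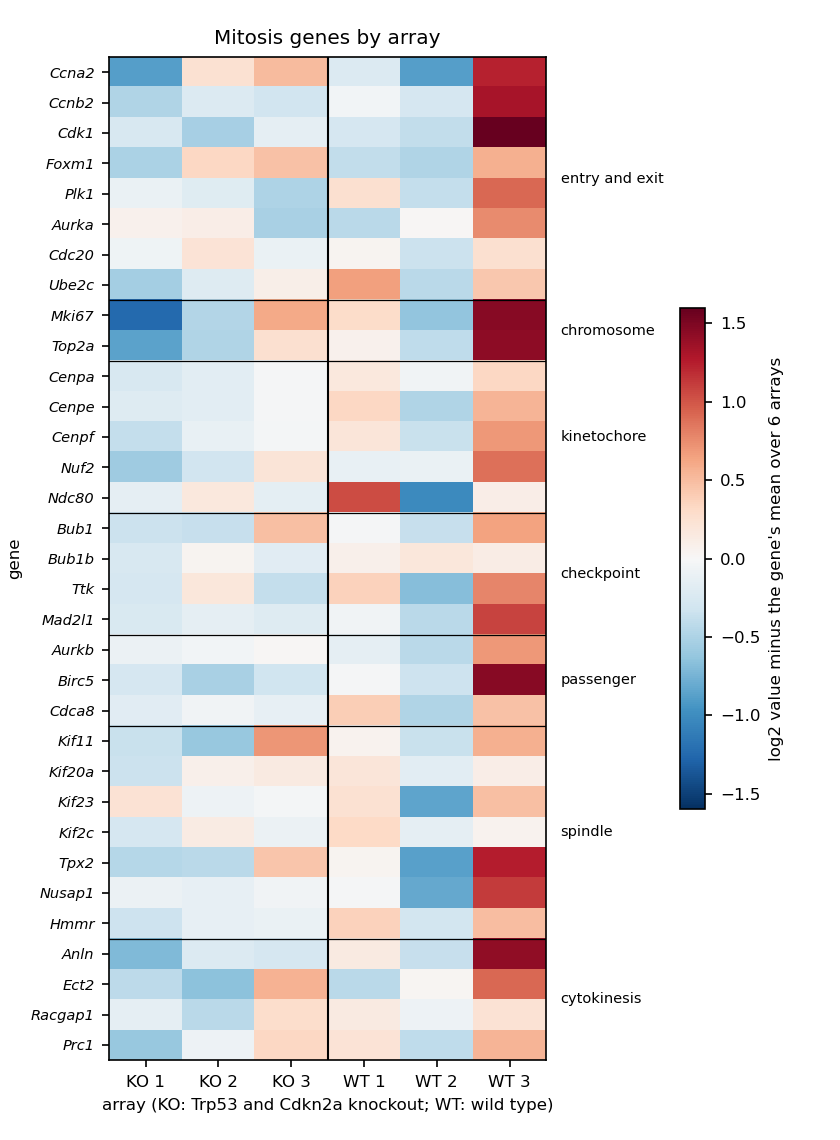
Log2 value of each of the 33 measured mitosis genes (rows, grouped by role) on each array (columns, KO left of WT), as the difference from the gene's own mean over the 6 arrays. WT replicate 3 is the highest array for 26 of the 33 genes, and KO replicate 1 the lowest for 15.

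Many of the genes were dim. A dim level of 5.50 was set at the 95th percentile of the means of 1394 olfactory and vomeronasal receptor genes, which serve the sense of smell. Of the 33 mitosis genes 16 had a mean over all arrays above it, as did 55.9% of all genes, and 17 did not. The 16 brighter genes had a median log2 fold change of -0.23, with 13 negative, and their mean was 5.73, 5.95 and 6.17 on the KO arrays, against 6.09, 5.66 and 6.87 on the WT arrays. Their median turned to 0.05 without WT replicate 3, with 6 negative and 10 positive. The 17 dimmer genes had a median of -0.29, with 17 negative, and -0.10 with 13 negative without WT replicate 3. Fold changes and flat stretches of dim genes are measured close to background.

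Promoter sequence played no part in choosing the genes and was examined as a feature they might share. RefSeq windows of GRCm38.p6, from 250 bases before to 50 bases after the annotated start, were matched by symbol for 29 of the 34 genes. Ccnb1 was among them. The CHR letters TTTGAA or TTCGAA, searched on both strands, occurred in 23 of the 29 genes (79.3%), against 21.7% of the 27025 genes in the table. From 60 bases before the start to the end of the window, a stretch chosen in addition to the planned search, they occurred in 21 genes (72.4%), against 6.79% of the table. The CCAAT letters, on either strand, occurred in 22 genes (75.9%), against 41.1% of the table, and 20 genes (69%) held both, against 8.61%. The E2F letters TTTCCCGC, TTTCGCGC, TTTGCCGC or TTTGGCGC, whose matches on opposite strands can overlap, occurred in 1 of the 29 genes (3.45%), Cdk1, against 2.6% of the table. The DNA replication genes showed the opposite balance of CHR and E2F letters, with CHR letters in 9 of 33 genes that had a window (27.3%) and E2F letters in 14 (42.4%). CCAAT letters occurred in 22 of these 33 (66.7%), a share near that of the mitosis genes. Of 64 further mitosis genes with a window, taken from a wider list, 37 held CHR letters (57.8%) and 46 CCAAT letters (71.9%). Both occurred in 30 of the 64 (46.9%), and E2F letters in 9 (14.1%). A match of letters is a description and not evidence of binding.

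The 5 genes with CHR letters and the smallest unadjusted p are written out to show where the element sits relative to the start and to the CCAAT boxes. They are Anln (chr9:22389157-22389456, minus strand), Bub1b (chr2:118597961-118598260, plus strand), Hmmr (chr11:40733388-40733687, minus strand), Ccnb2 (chr9:70421505-70421804, minus strand) and Plk1 (chr7:122159185-122159484, plus strand). Each window is written 5′ to 3′ on the strand of the gene, and capitals mark CHR and CCAAT letters on either strand.
Anln: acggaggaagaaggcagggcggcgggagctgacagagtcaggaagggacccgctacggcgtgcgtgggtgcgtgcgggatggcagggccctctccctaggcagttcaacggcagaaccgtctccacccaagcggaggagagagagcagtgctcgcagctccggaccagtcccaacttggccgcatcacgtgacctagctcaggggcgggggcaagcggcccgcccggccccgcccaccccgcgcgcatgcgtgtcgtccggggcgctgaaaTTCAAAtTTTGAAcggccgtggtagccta
Bub1b: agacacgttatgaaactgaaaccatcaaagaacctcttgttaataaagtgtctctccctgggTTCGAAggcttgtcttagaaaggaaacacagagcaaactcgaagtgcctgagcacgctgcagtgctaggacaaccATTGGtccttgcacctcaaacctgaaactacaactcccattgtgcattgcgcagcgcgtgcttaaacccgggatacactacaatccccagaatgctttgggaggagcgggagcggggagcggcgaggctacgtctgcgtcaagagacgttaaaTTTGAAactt
Hmmr: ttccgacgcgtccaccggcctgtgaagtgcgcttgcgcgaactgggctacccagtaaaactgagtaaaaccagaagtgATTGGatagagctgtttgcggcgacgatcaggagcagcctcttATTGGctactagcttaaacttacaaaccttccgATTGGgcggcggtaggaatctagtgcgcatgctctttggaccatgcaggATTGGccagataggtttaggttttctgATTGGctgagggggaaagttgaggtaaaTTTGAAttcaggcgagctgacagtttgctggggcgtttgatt
Ccnb2: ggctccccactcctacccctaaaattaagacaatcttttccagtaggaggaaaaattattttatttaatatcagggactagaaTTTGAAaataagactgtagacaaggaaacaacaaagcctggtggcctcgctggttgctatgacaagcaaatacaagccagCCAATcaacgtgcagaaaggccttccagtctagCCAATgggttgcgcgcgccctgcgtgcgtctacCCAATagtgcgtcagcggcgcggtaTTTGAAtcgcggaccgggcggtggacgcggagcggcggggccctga
Plk1: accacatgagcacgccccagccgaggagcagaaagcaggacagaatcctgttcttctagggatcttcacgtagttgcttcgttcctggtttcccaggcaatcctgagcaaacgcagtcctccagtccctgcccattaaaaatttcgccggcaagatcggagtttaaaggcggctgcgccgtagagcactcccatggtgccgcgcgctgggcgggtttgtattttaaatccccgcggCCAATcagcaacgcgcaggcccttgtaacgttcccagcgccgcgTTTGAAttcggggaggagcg
In Ccnb2 one of 2 CHR matches lay 5 to 10 bases after the start, downstream of 3 CCAAT boxes, and in Hmmr 9 to 14 bases after the start, downstream of 5 CCAAT boxes. Anln held a CHR on each strand within 22 to 34 bases after the start and no CCAAT box in the window. By array values, the 23 measured genes with CHR letters had a median log2 fold change of -0.29, and the 5 measured genes with a window but without the letters (Cenpe, Nuf2, Mad2l1, Birc5 and Nusap1) had -0.40. WT replicate 3 was the highest array for 17 of the 23 and for 5 of the 5.

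Among the cyclins, kinases and regulators of mitotic entry and exit, 6 of 8 genes had a negative log2 fold change, with a median of -0.33, and 0 passed the test. Without WT replicate 3 the median was 0.06, with 3 of 8 negative. Ccnb2, cyclin B2, had the largest difference of the subgroup. It read 6.05, 6.32 and 6.22 on the KO arrays, against 6.49, 6.27 and 7.85 on the WT arrays. Its WT value on replicate 3 stood more than 1 log2 unit above all other arrays, and WT replicate 2 lay within the KO range. The log2 fold change was -0.67 ± 0.363 (± standard error here and below, limma adjusted p = 1.0).

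Cdk1, the kinase that drives mitotic entry, was also highest on WT replicate 3. Its values were 4.63, 4.36 and 4.75 in KO cells, against 4.61, 4.495 and 6.48 in WT cells, so 5 of the 6 arrays lay within 0.386 of one another, all below the dim level. Its log2 fold change of -0.62 ± 0.453 (limma adjusted p = 1.0) became 0.02 without WT replicate 3. Plk1, the polo-like kinase that acts at the centrosome, kinetochore and midzone, read 6.05, 5.96 and 5.66 on the KO arrays, against 6.41, 5.78 and 7.08 on the WT arrays, with overlapping groups and a log2 fold change of -0.53. Ube2c, the ubiquitin-conjugating enzyme of the anaphase-promoting complex, had a log2 fold change of -0.43, and Aurka, the centrosomal Aurora kinase, of -0.23.

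Foxm1 and Ccna2 had the widest ranges of the entry genes over the KO arrays. Foxm1, the transcription factor that activates late cell cycle genes, read 5.01, 5.85 and 5.997 in KO cells, against 5.13, 5.05 and 6.09 in WT cells. KO replicates 2 and 3 were thus nearly as high as WT replicate 3, and the log2 fold change was 0.20 ± 0.330 (limma adjusted p = 1.0). Ccna2, cyclin A2, read 5.30, 6.43 and 6.68 in KO cells, against 5.97, 5.31 and 7.41 in WT cells, which gave -0.09 ± 0.521, the least precise fold change of the subgroup. The value of Ccna2 was 0.50 without WT replicate 3. Cdc20, which activates the anaphase-promoting complex, had a log2 fold change of 0.03 and a range of 0.319 in KO cells and 0.604 in WT cells.

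Mki67 and Top2a, the classic proliferation antigen that coats mitotic chromosomes and the topoisomerase that untangles sister DNA, spanned the widest range over the arrays. Mki67 read 5.66, 6.44 and 7.51 in KO cells, against 7.19, 6.27 and 8.35 in WT cells. Its spread was thus large in both genotypes, with a range of 1.85 in KO cells and 2.09 in WT cells, and the log2 fold change was -0.73 ± 0.559 (limma adjusted p = 1.0). Top2a read 4.09, 4.46 and 5.20 on the KO arrays, against 5.02, 4.54 and 6.38 on the WT arrays, for a log2 fold change of -0.73 ± 0.445 (limma adjusted p = 1.0). Within each genotype both genes had replicate 3 highest, and the groups overlapped. Without WT replicate 3 both had a log2 fold change of -0.19.

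All 5 kinetochore genes had negative log2 fold changes, with a median of -0.29 and values between -0.44 and -0.09, and 0 passed the test. Nuf2, which with Ndc80 forms the microtubule-binding arm of the kinetochore, read 4.10, 4.36 and 4.87 in KO cells, against 4.55, 4.56 and 5.54 in WT cells (log2 fold change -0.44 ± 0.292, limma adjusted p = 1.0). Cenpa, the histone variant that marks the centromere, varied least of the 5 in WT cells. It read 6.04, 6.12 and 6.27 on the KO arrays, against 6.45, 6.23 and 6.62 on the WT arrays, and only WT replicate 2 fell inside the KO range (log2 fold change -0.29 ± 0.165, limma adjusted p = 1.0). Cenpf and Cenpe, a large coiled-coil protein and a kinesin of the outer kinetochore, had log2 fold changes of -0.36 and -0.26. Ndc80, the partner of Nuf2, did not share its pattern. It read 4.35, 4.66 and 4.35 in KO cells, against 5.54, 3.48 and 4.60 in WT cells, with WT replicate 1 highest and WT replicate 2 lowest. All 5 kinetochore genes stayed negative without WT replicate 3, with a median of -0.10.

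The 4 spindle checkpoint genes had log2 fold changes between -0.40 and -0.16, a median of -0.29, and 0 passed. Bub1b, which encodes the checkpoint inhibitor BubR1, was the only mitosis gene of the 33 whose KO arrays all lay below all WT arrays, as did 4.05% of all genes. It read 4.93, 5.24 and 5.01 in KO cells, against 5.28, 5.38 and 5.31 in WT cells, a narrow separation (log2 fold change -0.26 ± 0.138, limma adjusted p = 1.0). That value was -0.27 without WT replicate 3, and all 6 arrays of Bub1b lay below the dim level. Mad2l1, the checkpoint protein Mad2, read 6.64, 6.74 and 6.67 on the KO arrays, against 6.83, 6.46 and 7.97 on the WT arrays. Its log2 fold change of -0.40 ± 0.337 (limma adjusted p = 1.0) was -0.72 without WT replicate 2 and 0.04 without WT replicate 3. Ttk, the kinase Mps1, had a log2 fold change of -0.31, and Bub1, the kinase that recruits checkpoint proteins to the kinetochore, of -0.16. Both had values above 0 without WT replicate 3, 0.01 and 0.12, and the median of the 4 genes was then 0.02.

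The chromosomal passenger complex corrects faulty attachments through the kinase Aurkb, held in place by Birc5 (survivin) and Cdca8 (borealin). Birc5 read 4.43, 4.18 and 4.39 in KO cells, against 4.68, 4.37 and 6.16 in WT cells. WT replicate 3 was highest, and the other 5 arrays lay below the dim level, as they did for Cdk1. Its log2 fold change of -0.74 ± 0.391 (limma adjusted p = 1.0) became -0.19 without that array. Aurkb and Cdca8 had log2 fold changes of -0.08 and -0.25. The median of the 3 genes was -0.08 without WT replicate 3. The mean of the 3 genes varied very little among the KO arrays, at 5.11, 5.09 and 5.15, against 5.37, 4.88 and 6.17 on the WT arrays. The KO range of 0.0658 was the smallest of the 7 subgroups and the WT range was 1.29.

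The spindle motors and spindle assembly factors had the smallest median difference, -0.18 over 7 genes, of which 6 were negative and 0 passed. Hmmr, a microtubule-binding protein of the spindle pole, had the largest difference. It read 3.41, 3.60 and 3.63 in KO cells, against 4.11, 3.44 and 4.22 in WT cells, with WT replicate 2 inside the KO range (log2 fold change -0.38 ± 0.201, limma adjusted p = 1.0). Of the motors, Kif11, which slides spindle poles apart, had a log2 fold change of -0.18, Kif2c, a microtubule depolymerase, of -0.16, Kif20a, a midzone kinesin, of -0.08, and Kif23, the kinesin of centralspindlin, of 0.09. Kif11 was highest on KO replicate 3, at 6.27, against 6.13 on WT replicate 3. Tpx2, which nucleates microtubules and activates Aurora A, and Nusap1, which bundles microtubules near chromosomes, had log2 fold changes of -0.29 and -0.19. These were 0.26 and 0.32 without WT replicate 3, and the median of the subgroup was 0.06, with 3 of 7 negative.

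All 4 cytokinesis genes had negative log2 fold changes, with a median of -0.29, and 0 passed. Without WT replicate 3 the median was -0.07, with 3 of 4 negative. Anln, anillin, the scaffold of the contractile ring, had the lowest log2 fold change of the 33 genes. It read 4.31, 4.81 and 4.75 in KO cells, against 5.17, 4.66 and 6.44 in WT cells. WT replicate 2 lay within the KO range and WT replicate 3 far above it, and the mean over all arrays was below the dim level (log2 fold change -0.80 ± 0.388, limma adjusted p = 1.0, and -0.29 without WT replicate 3). Ect2, the exchange factor that activates RhoA at the cleavage site, was high on both replicate 3 arrays, at 6.05 in KO cells and 6.42 in WT cells, with a log2 fold change of -0.35. Racgap1, the second centralspindlin subunit, had a log2 fold change of -0.19, and Prc1, which bundles the central spindle, of -0.24.

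**Figure D2:**
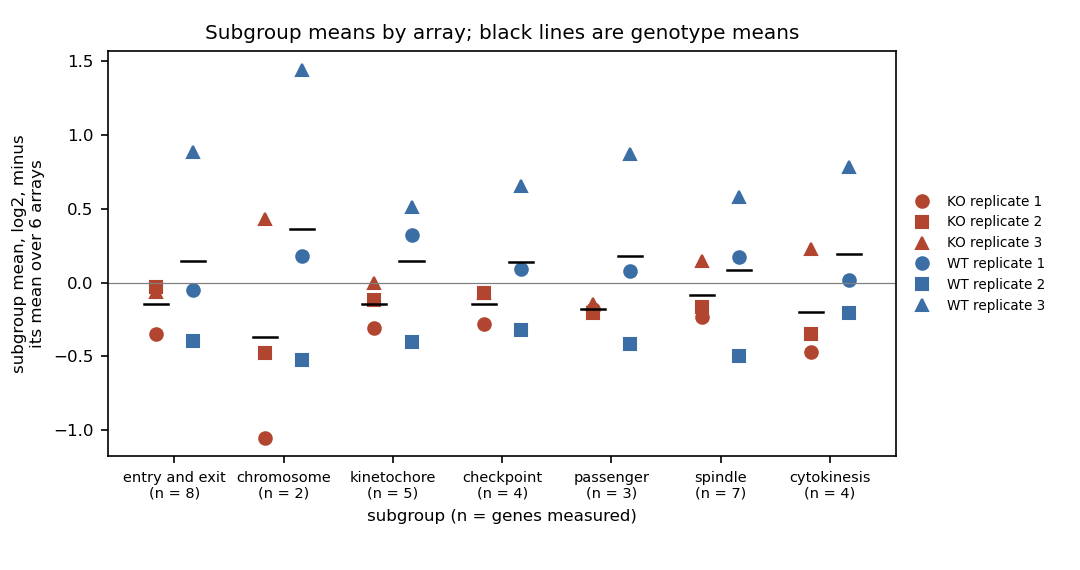
Mean log2 value of each role subgroup on each array, as the difference from the subgroup's mean over the 6 arrays, with KO points left of WT points and black lines at the genotype means. WT replicate 3 is highest in all 7 subgroups, and the lowest array is WT replicate 2 in 5 of them and KO replicate 1 in the chromosome and cytokinesis subgroups.

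**Figure D3:**
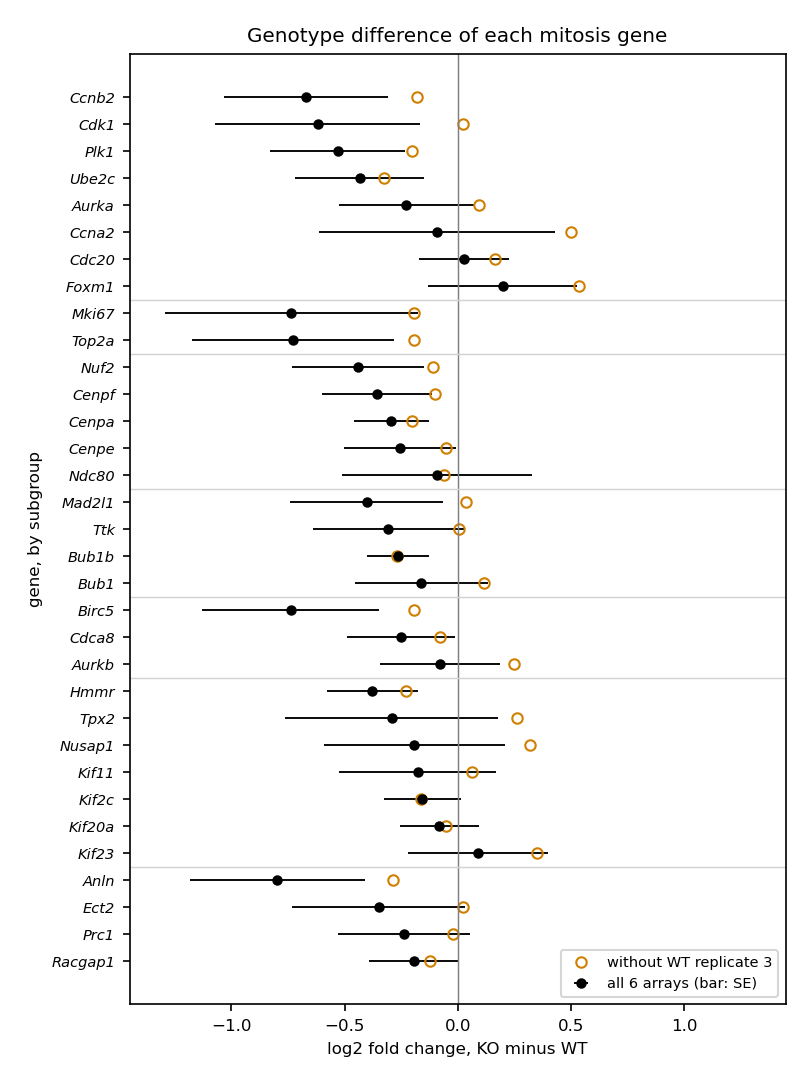
Log2 fold change (KO minus WT) of each mitosis gene over all 6 arrays (filled points, with the standard error) and without WT replicate 3 (open points), in order within each subgroup. With all arrays 30 of 33 values lie below 0, and without WT replicate 3 this holds for 19. Without WT replicate 2, which is not drawn, it holds for 32.

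The size of the difference between genotypes depended on which WT array was left out. WT replicate 3 was the highest WT array for 28 of the 33 genes, so leaving it out had to raise their log2 fold changes. WT replicate 2 was the lowest for 29, so leaving it out had to lower theirs. The 7 subgroup medians lay between -0.19 and 0.06 without WT replicate 3, and between -1.18 and -0.40 without WT replicate 2. Without WT replicate 3, 19 mitosis genes were negative and 14 positive, and the median log2 fold change was -0.05, where that of all genes was -0.01. Without WT replicate 2, the array of lowest mitosis level, 32 were negative and the median was -0.56. Leaving out any of the other 4 arrays gave medians between -0.40 and -0.22. Array weights, which limma estimates from all genes and which gave WT replicate 3 a weight of 1.98 and WT replicates 1 and 2 weights of 0.597 and 0.461, moved the median to -0.59, with 33 of 33 genes negative and 0 genes past the adjusted threshold.

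KO and WT arrays of the same replicate number differed in the mean of the 33 genes by -0.46, 0.24 and -0.71 for numbers 1, 2 and 3. Of the 33 genes, 29 were lower in KO cells at number 1, 10 at number 2 and 30 at number 3, and 6 were lower at every number. With replicate number as a block in the fit, 6 mitosis genes had an unadjusted p under 0.05, all lower in KO cells, beside 2.64% of all genes called lower in that fit. These were Ccnb2, Mki67, Top2a, Nuf2, Birc5 and Anln. None passed over all genes, with a smallest limma adjusted p among mitosis genes of 0.867 for Top2a.

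The mitosis genes varied together from array to array. Across all 6 arrays, WT replicate 3 was highest for 26 of 33 mitosis genes (78.8%), against 14.1% of all genes. Among the WT arrays alone, which leaves the genotype contrast aside, WT replicate 3 was highest for 28 genes (84.8%, against 25.2% of all genes) and WT replicate 2 lowest for 29 (87.9%, against 37.7%). On the linear scale the mean of the 33 log2 values was 2.22 times as high on WT replicate 3 as on WT replicate 2. Among the KO arrays alone, KO replicate 3 was highest for 20 genes (60.6%, against 34.0% of all genes) and KO replicate 1 lowest for 20 (60.6%, against 29.6%), and the mean differed 1.32 times between them. Genes of a shared program are not independent of one another, so these shares describe the 6 arrays.

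Each gene was also set against the mean of the other 32 over the 6 arrays. The correlation was over 0.8 for 21 of 33 genes, with a median of 0.874. Cenpf followed the others most closely, at 0.987, and Top2a, Tpx2 and Anln were at 0.960, 0.955 and 0.949. Bub1b, Ndc80, Aurka and Kif2c followed least, at 0.256, 0.396, 0.444 and 0.451. Of all these named genes only Aurka had a mean above the dim level. The points share the same 6 arrays, of which WT replicate 3 lies far from the rest, and the values are a description.

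Spread within a genotype was wider in WT cells for most of the genes. The SD over 3 arrays was larger in WT than in KO cells for 29 of 33 mitosis genes (87.9%), as for 61.5% of all genes. The median SD was 0.206 in KO cells and 0.590 in WT cells, where all genes had 0.161 and 0.209. Nusap1 showed the contrast most plainly, with a range of 0.0636 over the KO arrays and 1.93 over the WT arrays. Over the KO arrays alone, Mki67, Ccna2 and Kif11 had the widest ranges, at 1.85, 1.38 and 1.32. A wider spread in WT cells was not particular to the mitosis genes. Among the wider lists below with more than 1 measured gene, the share ran from 41.2% to 92.3%. The lowest was that of basal markers (7 of 17) and the highest that of core anaphase-promoting complex subunits (12 of 13). It was 83.3% for luminal markers and 76.3% for DNA replication genes. With 3 arrays a genotype, the difference in spread was not tested.

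**Figure D4:**
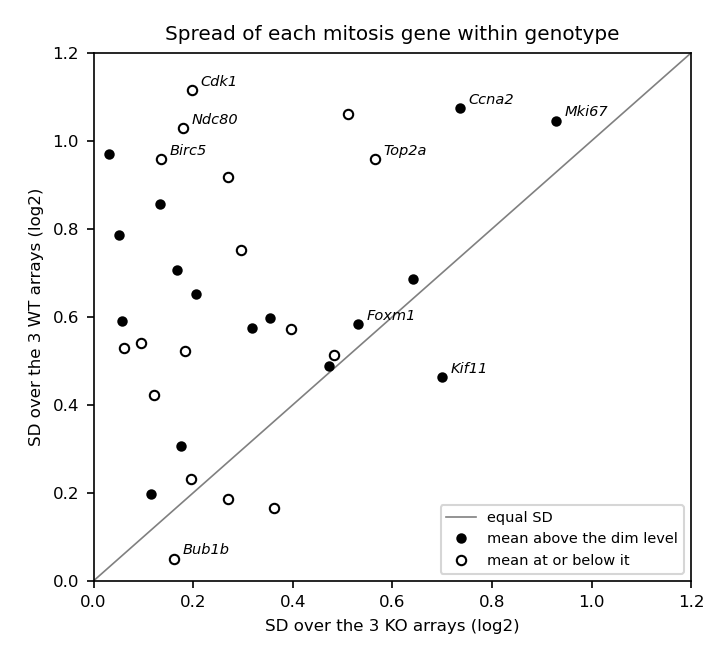
SD of each mitosis gene over the 3 WT arrays (vertical) against the 3 KO arrays (horizontal), in log2 units, with filled points for genes whose mean exceeds the dim level of 5.50 and a line of equal SD. Of the 33 points, 29 lie above the line.

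Other genes of cell division were read from wider lists. Of 73 further mitosis genes measured, 50 were negative and 23 positive, with a median log2 fold change of -0.08, and 0 passed. Their mean was 5.51, 5.62 and 5.63 on the KO arrays, against 5.67, 5.47 and 5.996 on the WT arrays, so WT replicate 3 was highest and WT replicate 2 lowest here too. Without WT replicate 3, 33 of the 73 were negative and the median was 0.01. WT replicate 3 was the highest array for 38 of the 73 (52%, against 14.1% of all genes). Cenpp and Cenpi, constitutive centromere proteins, had log2 fold changes of -0.58 ± 0.162 and -0.59 ± 0.170, and all their KO arrays lay below their WT arrays. Ska3, a kinetochore protein that tracks microtubule ends, had a value of 0.53 ± 0.162, and all its KO arrays lay above its WT arrays. None of these 3 passed (limma adjusted p = 1.0 each), and all 3 had means below the dim level. Of the 73, 8 had all KO arrays below all WT arrays, beside 4.05% of all genes, and 2 had all KO arrays above, beside 3.63%.

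The core subunits of the anaphase-promoting complex, whose transcripts are not restricted to mitosis, had another order of arrays. Of 13 measured, 9 were negative with a median of -0.11, and WT replicate 2 was highest for 7 (53.85%, against 23.5% of all genes). Their mean was 8.22, 8.31 and 8.31 on the KO arrays, against 8.07, 8.63 and 8.38 on the WT arrays. Of 12 DREAM and MuvB subunits, the proteins that repress and activate CHR promoters, 5 were negative and 7 positive with a median of 0.02. Rbl1, the pocket protein p107, had a log2 fold change of -0.54 ± 0.248 (limma adjusted p = 1.0).

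DNA replication genes act in S phase, before mitosis. Of 38 measured, 22 were negative and 16 positive, with a median of -0.04. Their mean was 6.48, 6.53 and 6.44 on the KO arrays, against 6.45, 6.43 and 6.67 on the WT arrays, so WT replicate 3 was again highest but the span was small. Over the 6 arrays the mitosis mean and the DNA replication mean correlated with Pearson's r = 0.781 (exact permutation p = 0.0889, adjusted 0.267) and Spearman's rho = 0.543 (exact permutation p = 0.297, adjusted 0.658), two-sided, adjusted by Benjamini-Hochberg over 3 relations. Without KO replicate 2 and WT replicate 3, the arrays farthest from the median of the replication mean, r was -0.147, so the relation rested on those arrays.

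The other 2 relations set the mitosis mean against marker means of the luminal and basal layers. For the luminal mean Pearson's r was -0.0155 (exact permutation p = 0.976, adjusted 0.976) and Spearman's rho -0.371 (exact permutation p = 0.497, adjusted 0.658), with r = 0.615 without WT replicates 1 and 2. For the basal mean r was -0.224 (exact permutation p = 0.656, adjusted 0.976) and rho -0.257 (exact permutation p = 0.658, adjusted 0.658), with r = -0.326 without KO replicates 2 and 3.

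**Figure D5:**
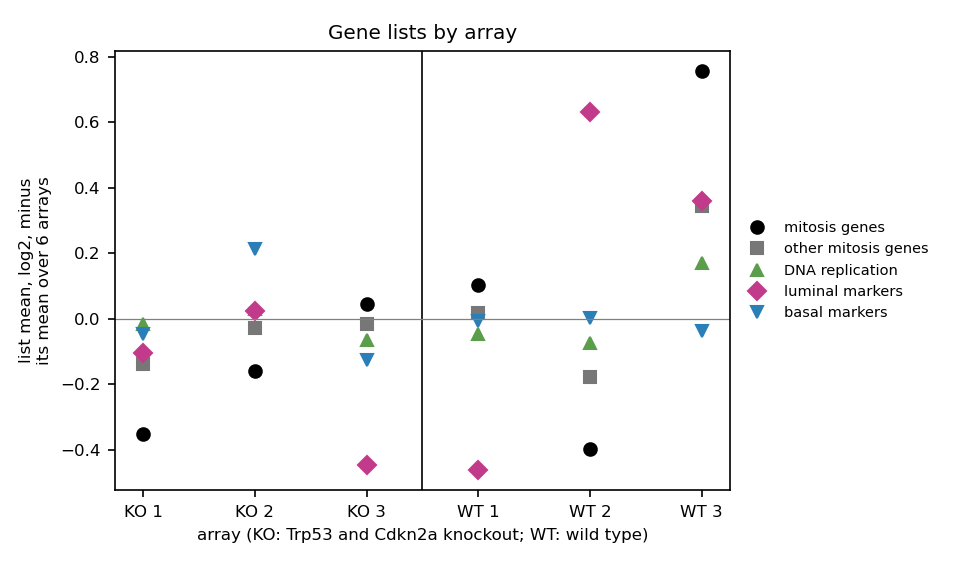
Mean log2 value of 5 gene lists on each array, KO left of WT, as the difference from the list's mean over the 6 arrays. The mitosis genes and the other mitosis genes are highest on WT replicate 3, while the luminal markers are highest on WT replicate 2, where the mitosis genes are lowest.

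Markers of other cells that could be in the sort also differed between arrays, and their part in the mitosis values was not tested. Luminal markers had 17 of 18 members negative, with list means between 7.74 and 8.21 on the KO arrays and between 7.73 and 8.82 on the WT arrays. Hormone-sensing luminal markers had 8 of 9 negative, with means between 6.29 and 6.98 on the KO arrays and between 6.44 and 7.65 on the WT arrays. With the luminal mean as a covariate the median log2 fold change of the mitosis genes was -0.41, with 31 negative. Fibroblast markers had 9 of 10 positive, with means between 6.52 and 6.66 on the KO arrays and between 6.07 and 6.30 on the WT arrays. Of these 10, 2 had all KO arrays above all WT arrays, beside 3.63% of all genes, and 1 had all KO arrays below, beside 4.05%. The 2 were Dpt and Lum, with log2 fold changes of 1.21 and 1.285. Dpt lay between 7.45 and 7.50 on the KO arrays and between 6.01 and 6.71 on the WT arrays. Of the 10 fibroblast markers 0 passed the adjusted threshold. Immune markers had 5 of 10 negative, with a median log2 fold change of -0.02. Their means lay between 5.08 and 5.23 on the KO arrays and between 4.98 and 5.18 on the WT arrays. Cd68, a macrophage marker, lay between 7.43 and 7.65 on the KO arrays and between 6.91 and 7.32 on the WT arrays. It was the only immune marker of the 10 whose KO arrays all lay above all WT arrays, beside 3.63% of all genes. Endothelial markers had 4 of 8 negative, with means between 5.37 and 5.50 on the KO arrays and between 5.24 and 5.56 on the WT arrays. The red cell list had 1 measured gene, Slc4a1, with values between 5.31 and 5.65 on the KO arrays and between 5.12 and 5.95 on the WT arrays. Basal markers had 12 of 17 negative, with means between 10.0 and 10.4 on the KO arrays and between 10.1 and 10.2 on the WT arrays.

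Genes outside these lists that most resembled the mitosis mean over the 6 arrays were sought among 4943 genes with an SD of at least 0.3. The highest correlation was that of Pole, the catalytic subunit of DNA polymerase epsilon, at 0.987, with a mean below the dim level. Pole read 4.71, 4.82 and 5.24 on the KO arrays, against 5.15, 4.58 and 5.84 on the WT arrays. Pclaf, a PCNA-binding factor, was at 0.972 and H2bc3, a histone H2B gene, at 0.971. H2bc3 read 6.88, 7.74 and 7.91 in KO cells, against 8.14, 6.83 and 9.08 in WT cells, the same order of arrays within each genotype as Mki67. The other 7 of the 10 most similar genes were Olfr1477, Dcpp2, Olfr1328, Pate6, Stac, Ugt2b36 and Gm5154, with correlations between 0.950 and 0.980, and all 7 had means below the dim level as well. Outside the mitosis genes, 3.13% of the 4943 genes had a correlation over 0.8. In that pool 17 of 36 other mitosis genes and 0 of 13 genes of the DNA replication list did. Pole and Pclaf were not on the DNA replication list and so are not among those 13. With 6 arrays such values are a description and carry no test.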

How the data were processed

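Basal mammary cells were profiled on 6 whole-transcript arrays, 3 KO and 3 WT, 1 per biological replicate, per the labels. The authors deposited 1 log2 value for each probe set and array, made with RMA (background correction, normalization between arrays, summary over probes) and Transcriptome Analysis Console 4.0, per the submitters' processing notes. Scan dates and batches were not given in the sources used here.

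Of 41345 rows, 23521 carried 1 gene symbol in the platform annotation, 1814 several, and 16010 were unnamed here. Rows of 1 symbol were used, and for each of 1082 genes with several rows the brightest row on average was taken, leaving 22180 genes. Each measured mitosis gene had a single row.

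Genotypes were compared over all genes with limma 3.58.1 in R 4.3.3 (lmFit, and eBayes with trend), using two-sided tests and a Benjamini-Hochberg threshold of 0.05. Log2 fold changes are KO minus WT, with the moderated standard error. The p-values set each difference against the spread between these arrays within genotypes, pooled over both genotypes and moderated over all genes. The fit was tested on simulated arrays with known changes, in which genes varied independently of one another. The mitosis genes varied together, so that test does not give the power to detect changes in them as a set.

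The mitosis genes, the wider lists and the tests were chosen with earlier results of these data known, so counts and medians of a list carry no test. Per-array values are given for Mki67, Top2a and Foxm1 and, in each subgroup, for the gene of largest absolute fold change and of smallest p. Any other listed gene could be named, and the array values of Cdk1, Plk1, Ccna2, Ndc80, Kif11 and Ect2 were added after they had been seen. In each wider list the 3 genes of smallest p could be named, and outside the lists the 10 genes most like the mitosis mean. Across all genes, the deviations of KO and WT arrays of 1 number from their genotype means had r = 0.121, 0.250 and 0.127, while KO replicate 3 and WT replicate 1 had 0.130. Across the mitosis genes alone the same numbers had r = 0.072, -0.044 and 0.294. There KO replicate 2 and WT replicate 1 had 0.264, and KO replicate 1 and WT replicate 2 had 0.203. The labels do not say what a number shares, so the pairing comes from this check alone, and the fit without the block was kept as the main one.

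Alternatives changed the normalization, centring, filter on dim genes, choice of rows, prior, array weights, pairing and luminal level, and left out each array in turn. Promoter windows came from RefSeq (GRCm38.p6), and figures were drawn with matplotlib 3.10.9.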

Additional observations from a re-analysis of the deposited data

How the results depend on the processing

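The mitosis median of -0.263 kept its sign when one choice was changed at a time: between -0.28 and -0.232 with quantile normalization, median centring, the dim filter, the mean of all rows, the prior without trend and the replicate block, -0.409 with the luminal covariate, -0.593 with array weights, and between -0.562 and -0.0503 without any one array. Over the 16 genes above the dim level and without WT replicate 3, a combination chosen after seeing the data, it turned to 0.0502. No setting brought a gene past the adjusted threshold, with smallest adjusted p between 0.0749 and 0.999. At an unadjusted p under 0.05 the main fit held 736 of 22180 genes, 0 of them among the 33 mitosis genes. The replicate block held 1112 genes, 6 of them mitosis genes, and array weights 1970 and 17. Fits without any one array held between 554 genes (KO replicate 1) and 1788 (WT replicate 1). The fit without WT replicate 2 held 953 genes, 13 of them mitosis genes, and no other removal held more than 1 mitosis gene.

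Leaving out single arrays turned the sign of 3 subgroup medians, which lay between -0.655 and 0.0595 for entry and exit genes, -0.553 and 0.0225 for checkpoint genes and -0.4 and 0.0612 for spindle genes. The value above 0 came without WT replicate 3 in each. The same removals turned the sign of single genes, with ranges of -0.552 to 0.499 for Ccna2, -0.97 to 0.0246 for Cdk1, -0.498 to 0.0945 for Aurka, -0.139 to 0.163 for Cdc20, -0.619 to 0.409 for Ndc80, -0.44 to 0.118 for Bub1, -0.725 to 0.00586 for Ttk, -0.717 to 0.0391 for Mad2l1, -0.317 to 0.251 for Aurkb, -0.575 to 0.0846 for Kif11, -0.185 to 0.0737 for Kif20a, -0.313 to 0.35 for Kif23, -0.796 to 0.263 for Tpx2, -0.645 to 0.32 for Nusap1, -0.714 to 0.0243 for Ect2 and -0.502 to 0.00808 for Prc1. Array weights turned Foxm1 to -0.297, Cdc20 to -0.137 and Kif23 to -0.13. The luminal covariate turned Aurka to 0.0428, Cdc20 to -0.00718 and Kif23 to -0.114. The cause of these shifts was not tested. The replicate block changed no adjusted call. Dim signal limits 17 of the 33 genes.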
